A study of Mus musculus with 4 samples.

Results

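FLAG-MIXL1 peaks that lay inside protein-coding genes shorter than 200 kb, away from the ends of genes, numbered 2141 of the 9598 peaks in the deposited list (22.3%). A peak was taken when it lay on chromosomes 1 to 19 other than 12, when its centre was inside the span of a protein-coding gene and every such gene holding the centre was shorter than 200 kb, and when the centre was more than 1 kb from the ends of all protein-coding genes. On these 18 chromosomes the list held 7791 peaks, so the peaks inside genes of this size made up 27.5% of them. Chromosome 12 and the sex chromosomes are not described. The peaks came from mouse epiblast stem cells, a pluripotent cell type cultured from the epiblast after implantation, carrying an inducible Mixl1. The series has 2 libraries from anti-FLAG M2 immunoprecipitation and 2 input libraries. All 4 were made from 2-day embryoid bodies in serum differentiation, exposed to 1 µg/mL doxycycline for the last 24 h, and the parent cells had been maintained over irradiated mouse embryonic fibroblasts with activin A at 20 ng/mL and bFGF at 10 ng/mL. A group without doxycycline was not analysed here, and how the inducible gene was introduced is not given in the sources used here. Binding was thus measured with MIXL1 supplied from an inducible gene. The list gives a chromosome, start and end per peak, with no score and no value per library, so the depth is unknown, no value has a replicate error, and intervals cover counting of peaks only. Nearby peaks are not independent of each other, which makes the p-values smaller than independent sites would give.

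MIXL1 is a homeodomain protein of the paired type that is made in the primitive streak, where epiblast cells become mesoderm and endoderm. Paired-type homeodomains bind the half-site TAAT, singly or as inverted pairs. Enhancers of developmental genes often lie within introns of the gene they control or of a neighbour, and many genes also have start sites inside their span that give shorter transcripts or belong to a noncoding gene. A peak inside a gene therefore names a place, and does not by itself name the gene that is regulated or show that it is expressed. The gene table gives no exons, so whether a peak lay in an exon or an intron is not stated.

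Some of the peaks lay over such inner start sites, and these are the places for which sequence was at hand. For 49 peaks in 48 genes, the peak covered part of the 250 bases upstream of an annotated start that itself lay inside the gene and away from its ends. The stretches below, from RefSeq (GRCm38.p6) and 5′ to 3′ on the strand of the transcript, are the upstream bases that the peak covered. Capitals mark TAAT or its reverse complement ATTA. The first 4 stretches are those in which TAAT, counted on both strands, occurred at least 4 times. The Lin28b stretch (chr10:45470202-45470451, minus strand) has 5 matches and lies under a peak of 934 bp. Lin28b encodes an RNA-binding protein of early embryonic cells that blocks maturation of let-7 microRNAs. The Sptbn1 stretch (chr11:30198258-30198507, minus strand) has 6 matches at an inner start of the gene of a spectrin, a protein of the membrane skeleton. The Jmjd1c stretch (chr10:67185504-67185749, plus strand) has 4 matches, in the gene of a Jumonji-domain protein. The Cald1 stretch (chr6:34709194-34709443, plus strand) also has 4, in the gene of the actin-binding protein caldesmon.
Lin28b: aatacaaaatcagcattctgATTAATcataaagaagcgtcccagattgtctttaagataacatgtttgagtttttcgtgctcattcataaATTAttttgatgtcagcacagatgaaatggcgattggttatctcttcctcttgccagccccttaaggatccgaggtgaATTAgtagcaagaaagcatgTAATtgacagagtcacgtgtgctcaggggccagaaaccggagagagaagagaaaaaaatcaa
Sptbn1: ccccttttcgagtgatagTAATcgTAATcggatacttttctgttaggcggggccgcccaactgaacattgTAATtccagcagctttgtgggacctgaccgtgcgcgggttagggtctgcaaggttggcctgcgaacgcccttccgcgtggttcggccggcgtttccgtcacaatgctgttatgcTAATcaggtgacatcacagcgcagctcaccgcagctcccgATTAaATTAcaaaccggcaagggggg
Jmjd1c: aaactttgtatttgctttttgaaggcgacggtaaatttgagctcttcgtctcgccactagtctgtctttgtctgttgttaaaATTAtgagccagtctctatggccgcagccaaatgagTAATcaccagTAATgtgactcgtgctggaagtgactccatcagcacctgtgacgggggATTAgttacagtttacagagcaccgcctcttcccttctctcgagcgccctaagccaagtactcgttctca
Cald1: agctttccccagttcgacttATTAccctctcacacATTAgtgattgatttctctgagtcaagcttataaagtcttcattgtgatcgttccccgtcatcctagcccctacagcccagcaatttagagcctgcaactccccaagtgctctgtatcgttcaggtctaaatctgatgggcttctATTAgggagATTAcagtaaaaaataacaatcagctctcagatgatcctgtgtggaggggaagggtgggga

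The next pair is shown because it holds TAATTA, in which 2 half-sites overlap tail to tail. The Lpar1 stretch (chr4:58499404-58499653, minus strand) lies at an inner start of a lysophosphatidic acid receptor gene. The Gm52026 stretch (chr13:119741522-119741771, plus strand) belongs to a long noncoding RNA gene that starts inside Nim1k.
Lpar1: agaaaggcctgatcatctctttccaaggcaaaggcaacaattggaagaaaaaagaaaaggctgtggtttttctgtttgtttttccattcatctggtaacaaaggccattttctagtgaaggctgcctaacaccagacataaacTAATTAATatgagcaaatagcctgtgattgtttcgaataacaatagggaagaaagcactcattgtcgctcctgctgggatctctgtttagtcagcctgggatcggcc
Gm52026: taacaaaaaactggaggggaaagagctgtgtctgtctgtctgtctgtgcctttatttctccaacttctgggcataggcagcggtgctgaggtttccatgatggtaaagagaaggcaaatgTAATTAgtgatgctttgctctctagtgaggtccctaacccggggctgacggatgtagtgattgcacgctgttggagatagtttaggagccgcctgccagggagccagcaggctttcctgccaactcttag

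The last pair, from a cell adhesion gene and from the gene with the most peaks outside dense regions, holds no TAAT on either strand. The Cdh6 stretch (chr15:13173679-13173925, minus strand) is at an inner start of a cadherin gene, and the Gm31391 stretch (chr6:72677331-72677541, plus strand) is upstream of a noncoding RNA gene inside Tcf7l1.
Cdh6: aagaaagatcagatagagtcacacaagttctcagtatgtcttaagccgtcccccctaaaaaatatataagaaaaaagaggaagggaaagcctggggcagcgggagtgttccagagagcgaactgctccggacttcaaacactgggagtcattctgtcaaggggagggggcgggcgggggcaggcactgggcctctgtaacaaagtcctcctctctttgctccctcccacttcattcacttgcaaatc
Gm31391: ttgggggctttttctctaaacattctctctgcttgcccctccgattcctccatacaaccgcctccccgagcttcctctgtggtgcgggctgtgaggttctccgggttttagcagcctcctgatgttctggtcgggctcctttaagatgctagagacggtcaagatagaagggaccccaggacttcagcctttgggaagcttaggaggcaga

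Over whole windows of 250 upstream bases, with 1 window per gene, TAAT or ATTA was present in 34 of 48 windows under a peak (70.8%). It was present in 52.6% of 3911 windows at inner starts that no listed peak touched, and in 55.3% of the windows of all 27025 genes in the table. TAATTA was present in 5 of the 48 (10.4%), against 4.14% and 4.90%. A window counted as under a peak when a peak covered any part of it, so a match can lie outside the peak. Within the bases that peaks covered, TAATTA occurred only in the Lpar1 and Gm52026 stretches. The higher share in whole windows therefore does not describe the covered bases. TAAT followed by ATTA after a gap of 2 or 3 bases of any kind, the paired half-sites, was in none of the 48 windows and in less than 1% of either other set (0.256% and 0.281% at untouched starts). Both strands were searched, and TAATTA and the paired sites contain TAAT, so the shares are not independent. The median GC content was 50.2% under peaks, 52.4% at untouched starts and 52.0% overall. These shares are descriptions of short windows at start sites and were not tested. The sequence of the other peaks was not used here.

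Peaks were denser inside genes under 200 kb than inside longer genes or outside genes. Their density was 4.10 per Mb of inner gene length (95% Poisson interval 3.92 to 4.27), counting 522.7 Mb of gene span more than 1 kb from all gene ends. Inside genes of 200 kb or more it was 3.42 per Mb (3.24 to 3.62), a ratio of 1.20 (interval 1.12 to 1.28, adjusted p = 3.12e-07, exact conditional test of 2 rates, two-sided). Outside protein-coding genes it was 2.88 per Mb (2.79 to 2.98), a ratio of 1.42 (1.35 to 1.498, adjusted p = 6.95e-37, same exact test). The zones within 1 kb of gene ends had 7.90 per Mb (7.26 to 8.58). Assembly gaps could not be taken out of the length outside genes, and they lower its density.

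The ratio to longer genes rested on where the length limit was set. In genes of 2 to 10, 10 to 25, 25 to 50, 50 to 100 and 100 to 200 kb the density was 3.87, 4.00, 3.25, 4.11 and 4.46 per Mb of inner span. Here the inner span is each gene's length less 1 kb at each end, summed over genes. Overlapping genes thus count more than once, and the end zones of other genes stay in. Peaks in a short gene that overlaps a long one are not counted for the short gene. These values therefore have another base than the densities above. It was 5.17 per Mb in genes of 200 to 300 kb, 3.67 in those of 300 to 500 kb and 2.33 in those over 500 kb. Density among the longer genes was thus highest just past 200 kb and fell to the lowest of all classes over 500 kb. With a limit of 100 kb the ratio was 1.02 (adjusted p = 0.588, exact conditional test), and with 300 kb it was 1.49. At the limit itself, Crybg1 (198.5 kb), Sipa1l3 (198.8 kb) and Sergef (199.7 kb) held 2, 3 and 1 peaks, and Pbx3 (200.6 kb), Ppp1r12b (201.3 kb) and Fbn2 (201.95 kb), just past it, held 4, 1 and 2.

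**Figure D1:**
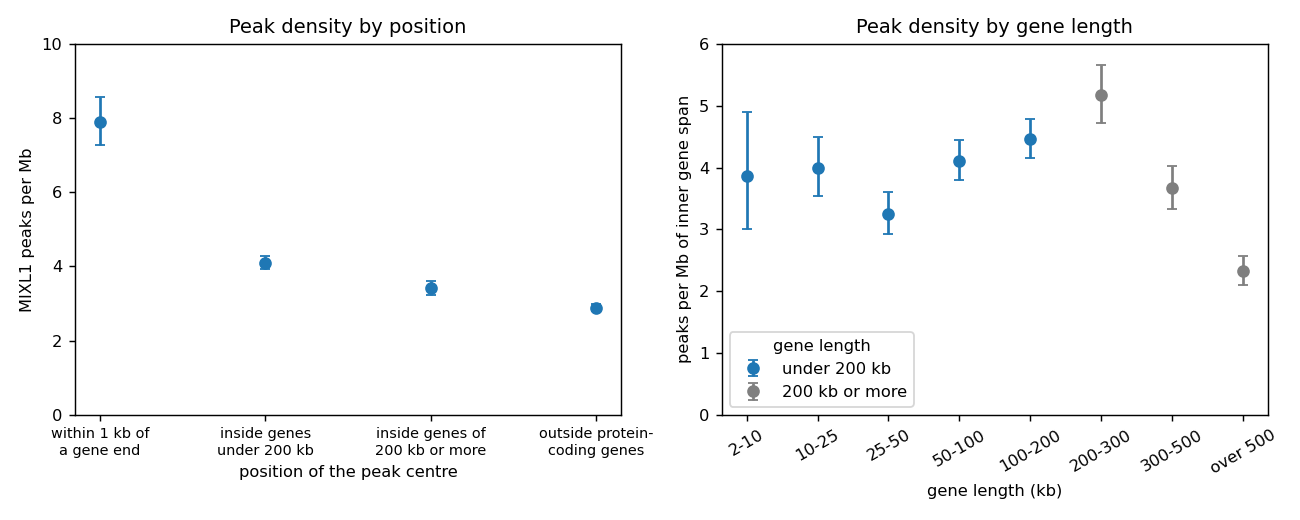
Left, MIXL1 peaks per Mb (y axis) by position of the peak centre, with 95% Poisson intervals. Right, peaks per Mb of inner gene span by gene length, with genes under 200 kb in blue and longer genes in grey. The span at right is gene length less 1 kb at each end, summed over genes, and differs from the length used at left. Density inside genes under 200 kb, 4.10 per Mb, lay between that of gene ends and that outside genes, and by length it was highest at 200 to 300 kb and lowest over 500 kb.

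Within the genes, peaks leaned toward the start. Strand was known for the genes of 1657 peaks held by a single gene. Of these, 910 (54.9%, exact binomial interval 52.5 to 57.3) lay nearer to the start than to the end of the inner span, against an even split (p = 6.81e-05, exact binomial test, two-sided). The start side made up 50.1% of the inner length. By equal parts of the inner span from the start to the end, the 5 densities were 4.69, 4.21, 4.27, 3.68 and 3.33 per Mb. At 1 to 5 kb from a gene start the density was 4.62 per Mb (4.02 to 5.28), and at 1 to 5 kb from a gene end it was 2.88 (2.41 to 3.41), so these intervals did not overlap. At 50 to 200 kb it was 4.17 per Mb counted from the start and 4.91 counted from the end. Leaving out peaks within 1 kb of inner starts gave 53.7% (exact p = 0.00367).

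Peaks were also concentrated at annotated starts inside the genes, of the kind whose sequences are printed above. Of 2075 peaks on the 17 chromosomes in the table of starts, 84 (4.05%) had their centre within 1 kb of 1 of 4987 starts lying away from gene ends. That is 10.4 per Mb (interval 8.26 to 12.8), against 4.01 per Mb (3.83 to 4.19) in the remaining inner length. The ratio was 2.59 (interval 2.05 to 3.22, adjusted p = 2.94e-13, exact conditional test). It was 2.77 at starts of protein-coding genes, with 58 peaks, and 2.14 at starts of other gene types, with 28 peaks (adjusted p = 6.20e-11 and 0.000345, same exact test). The 2 ratios were not tested against each other. Inside the whole span of a noncoding or other non-protein-coding gene the excess was smaller, with 122 peaks, 4.93 per Mb against 4.06 (ratio 1.21, interval 1.00 to 1.46, adjusted p = 0.0417, same exact test). These zone comparisons were added after the tables were seen.

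**Figure D2:**
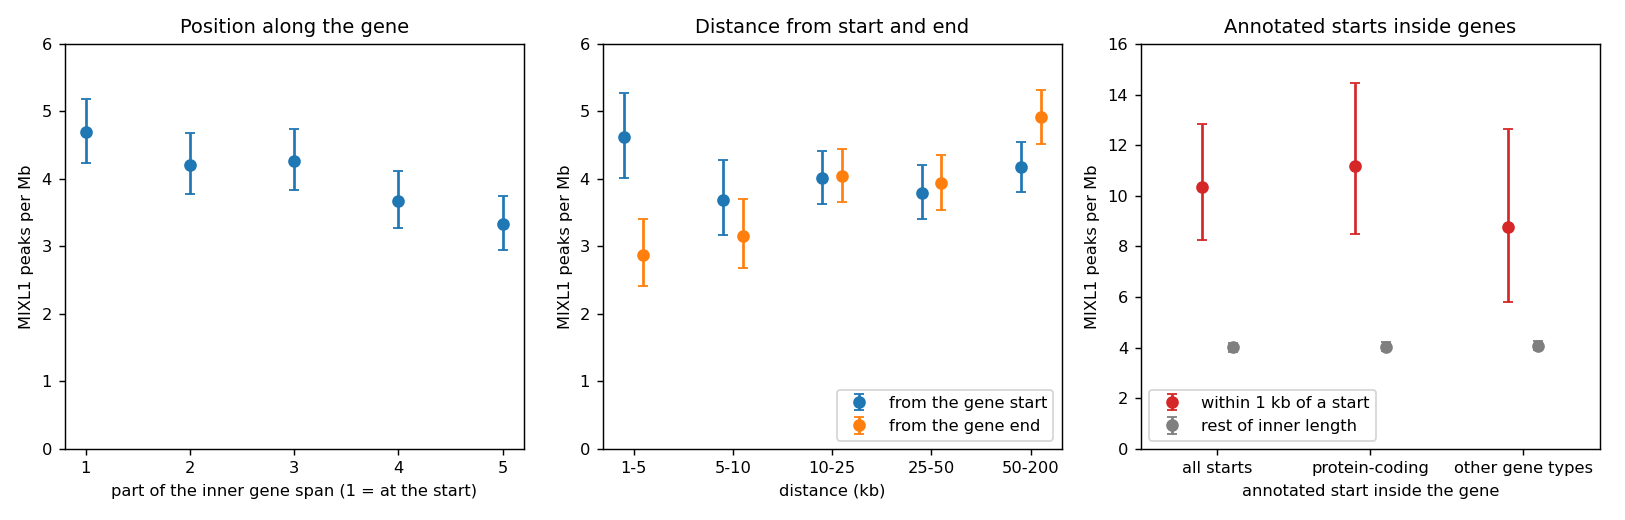
MIXL1 peaks per Mb (y axes) with 95% Poisson intervals: left, in 5 equal parts of the inner gene span counted from the gene start; middle, by distance in kb from the gene start (blue) or gene end (orange); right, within 1 kb of annotated starts inside genes (red) and in the rest of the inner length (grey). Density falls from 4.69 per Mb in the first part to 3.33 in the last, and is 10.4 per Mb around inner starts against 4.01 elsewhere.

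The peaks inside genes were wider than those at gene ends, and no difference in width from other peaks away from gene ends passed the test. Their median width was 479 bp (quartiles 347 and 718, range 240 to 6703), and together they covered 1.301 Mb. At gene ends the median was 415 bp, inside longer genes 480 bp and outside genes 482.5 bp. Peaks of 1 kb or more numbered 249 (11.6%), against 5.28% at gene ends (odds ratio 2.36, interval 1.59 to 3.61, adjusted p = 1.16e-05, two-sided Fisher's exact test). The share was 9.55% inside longer genes (odds ratio 1.25, interval 0.988 to 1.58, adjusted p = 0.124) and 12.6% outside genes (0.915, interval 0.773 to 1.08, adjusted p = 0.453), both by the same exact test. Of the 10 widest, 9 were in genes with a single inner peak, among them Pfkp (6703 bp), Map6 (4598 bp), Ndst3 (3935 bp), Kif27 (3439 bp) and Smad4 (3151 bp), and the other was in Gm5622, which held 7. Pfkp encodes a phosphofructokinase of glycolysis and Smad4 the common partner of the receptor-activated SMAD proteins.

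Peaks inside genes had another listed peak within 10 kb in 521 cases (24.3%). The share was 21.1% at gene ends (odds ratio 1.20, interval 0.955 to 1.52) and 26.7% inside longer genes (0.885, 0.754 to 1.04), with an adjusted p of 0.134 for both (Fisher's exact test). Neither direction was stable. With peaks more than 5 kb from gene ends the odds ratio against gene ends was 0.803 (interval 0.681 to 0.946, adjusted p = 0.0115, exact test), and without dense windows it was 1.39 (adjusted p = 0.0394, exact test). Against longer genes it was 1.15 without dense windows and also 1.15 with a limit of 300 kb. Outside genes it was 27.3%, so neighbours were slightly less common inside genes (odds ratio 0.858, interval 0.757 to 0.970, adjusted p = 0.0417, same exact test). That call was lost under 6 of 9 alternatives, among them the list without 1-Mb windows of 20 or more peaks (odds ratio 0.939, adjusted p = 0.373, exact test).

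The peaks fell in 1574 genes, and most of these held a single one. Of the protein-coding genes over 2 and under 200 kb on these chromosomes, 16748 in all, 9.4% held at least 1 inner peak. There were 1213 genes with 1 peak, 245 with 2, 67 with 3 and 49 with 4 or more, and 18 peaks lay in 2 overlapping genes and counted for both. The share of genes with a peak rose with length, from 1.28% of genes of 2 to 10 kb, 4.86% at 10 to 25 kb, 9.15% at 25 to 50 kb and 20.5% at 50 to 100 kb to 37.6% at 100 to 200 kb. The median length was 67.1 kb for genes with a peak and 19.6 kb for all genes tested. A longer gene offers more places for a peak. Lengths are given below for some of the genes, and counts per gene are not adjusted for length.

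Outside regions of dense peaks, Tcf7l1 held the most peaks. Tcf7l1 (chromosome 6, 72626371 to 72789045, 162.7 kb) encodes a TCF factor that represses Wnt target genes in pluripotent cells. Its 8 peaks lay from 33.7 to 133.7 kb past the gene start, the widest of them 1394 bp (72748020 to 72749413), and none lay in the first 33 kb. A pair among them, at 111.1 and 133.7 kb, covered upstream bases of Gm31391, a noncoding RNA gene on the opposite strand. Cdh22, a cadherin gene (chromosome 2, 165111501 to 165234924, 123.4 kb), held 7 peaks, of which 4 lay between 67.8 and 75.6 kb from its start. Prtg, the gene of the immunoglobulin-family receptor protogenin (chromosome 9, 72807274 to 72917307, 110.0 kb), held 6, from 5.32 to 73.3 kb. Il17rd (chromosome 14, 27038964 to 27107286), a membrane inhibitor of FGF signalling also known as Sef, held 6 in a shorter span of 68.3 kb, from 3.34 to 47.1 kb past the start. Peaks lay from 20.7 to 82.2% of the way along Tcf7l1 and from 18.1 to 61.3% along Cdh22. They lay from 4.84 to 66.6% along Prtg and from 4.88 to 69.0% along Il17rd. Inner peaks in these 4 genes thus covered only part of the gene and left its last part empty, with some in close groups. Ror2, which encodes a Wnt5a receptor, and Trim71, which encodes an RNA-binding protein of early embryos, had 5 each, and Igdcc3, a relative of Prtg, had 4. This last group was chosen after its values were seen, from 15 genes with 5 peaks and 25 with 4, dense regions included. Cdk15, Cuedc1, Ddc, Inpp5a, Lix1, Mbnl2, Myo10 and Tex14 also had 5 each. The predicted gene Gm5622, outside dense windows, held 7, as many as Cdh22.

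**Figure D3:**
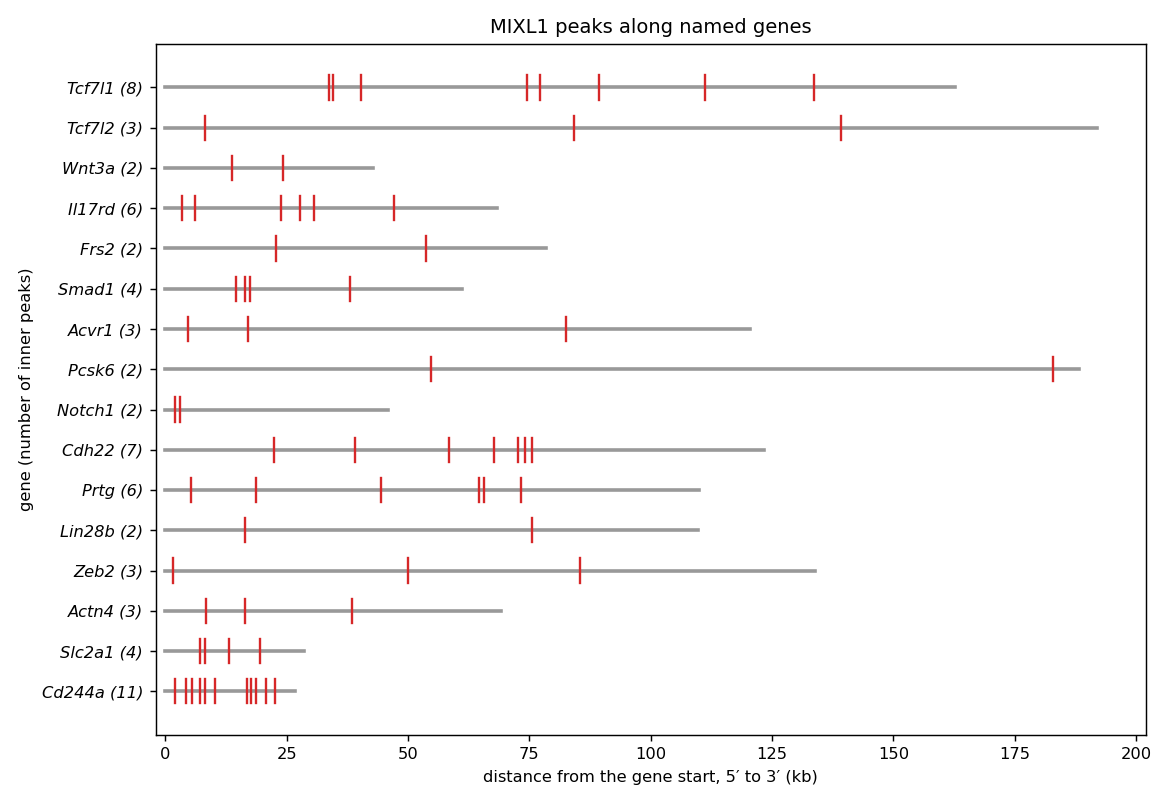
Positions of MIXL1 peak centres (red ticks) along 16 genes of known strand (grey lines), as distance in kb from the gene start on the x axis, with the number of inner peaks in parentheses. Peaks cover part of Tcf7l1, Cdh22, Prtg and Il17rd but not the last part, sit near the start of Notch1, and crowd the short Cd244a with 11.

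Signalling genes with inner peaks ran through the Wnt, FGF, BMP and Nodal pathways. In 5 pathway lists together, 38 of 139 genes (27.3%) had a peak, against 9.4% of all genes and against 17.7 genes if each were hit at the rate of its length class. Each of the 5 lists was above its own number from length, Notch only barely. The lists were chosen with earlier results of these data known, so these counts are descriptions without a test. Of 4 control lists, glycolysis had 3 of 19 genes hit (1.48 from length), a higher ratio to the number from length than that of the BMP or Notch list. Photoreceptor genes gave 2 of 19 (1.71), muscle contractile genes 1 of 22 (2.09) and T lymphocyte genes 1 of 22 (1.49). The controls together gave 7 of 82 (8.54%, 6.78 from length).

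In the Wnt list 14 of 38 genes had a peak, against 6.13 from length. These held 27 peaks, 8 of them in Tcf7l1. Ligand genes among them were Wnt3a and Wnt5a with 2 peaks each and Wnt11 with 1. Lgr4 and Lgr5, which encode receptors for R-spondins, had 2 each, and the feedback inhibitor genes Axin2 and Znrf3 had 1 each. Of nuclear factors, Tcf7l2 (191.9 kb) had 3 peaks, at 8.19, 84.2 and 139.1 kb from its start, Lef1 had 1, and the Groucho co-repressor genes Tle1, Tle3 and Tle4 had 1 each. Gsk3b, a kinase gene of the beta-catenin destruction complex, had 1. The Wnt count was 7 with a length limit of 100 kb, which takes the longer listed genes out of the count. The number from length under that limit is not given here. With the wider 50% of the list the Wnt count was 5, where 859 genes in all (5.13%) were hit.

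In the FGF and ERK list 10 of 32 genes had a peak, against 3.76 from length. Those named here spanned the pathway from the ligand gene Fgf10 and the receptor genes Fgfr1 and Fgfr2, through the adaptors Frs2 (2 peaks) and Grb2 and the kinase Map2k1, to the inhibitors Il17rd, Spred2 and Spry2. Il17rd with 6 and Frs2 with 2 were the genes with more than 1. With the wider 50% of the list the count was 6 of 32, where 5.13% of all genes were hit. The number from length at that setting is not given here.

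The TGF-beta family lists gave 6 of 25 genes for Nodal and Activin, against 2.47 from length, and 6 of 24 for BMP, against 3.47. In the BMP list, Smad1, which encodes a SMAD protein that BMP receptors activate, had 4 peaks in 61.0 kb. Of these, 3 lay between 14.6 and 17.4 kb past the start. Acvr1, a type I receptor gene, had 3, at 4.75, 16.96 and 82.5 kb, Bmp7 had 2, and the ligand gene Bmp6, the protease gene Bmp1 and the inhibitory Smad6 had 1 each. In the Nodal and Activin list, Pcsk6, a convertase of ligand precursors, had 2, and Acvr1b, a type I receptor gene of Nodal and activin, Foxh1, the DNA-binding partner of SMAD2, Smad4, the inhibitory Smad7 and the inhibitor gene Pmepa1 had 1 each. Foxh1 is only 3.79 kb long, and its peak (chromosome 15, 76669568 to 76669982) lay 1.84 kb from the nearer end. With the wider 50% of the list, 1 of the 25 Nodal and Activin genes kept a peak, where 5.13% of all genes were hit. The number from length at that setting is not given here. In the Notch list 2 of 20 genes were hit (1.84 from length), and these were the receptor genes Notch1 and Notch2 with 2 peaks each, those of Notch1 at 2.06 and 3.06 kb from its start.

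**Figure D4:**
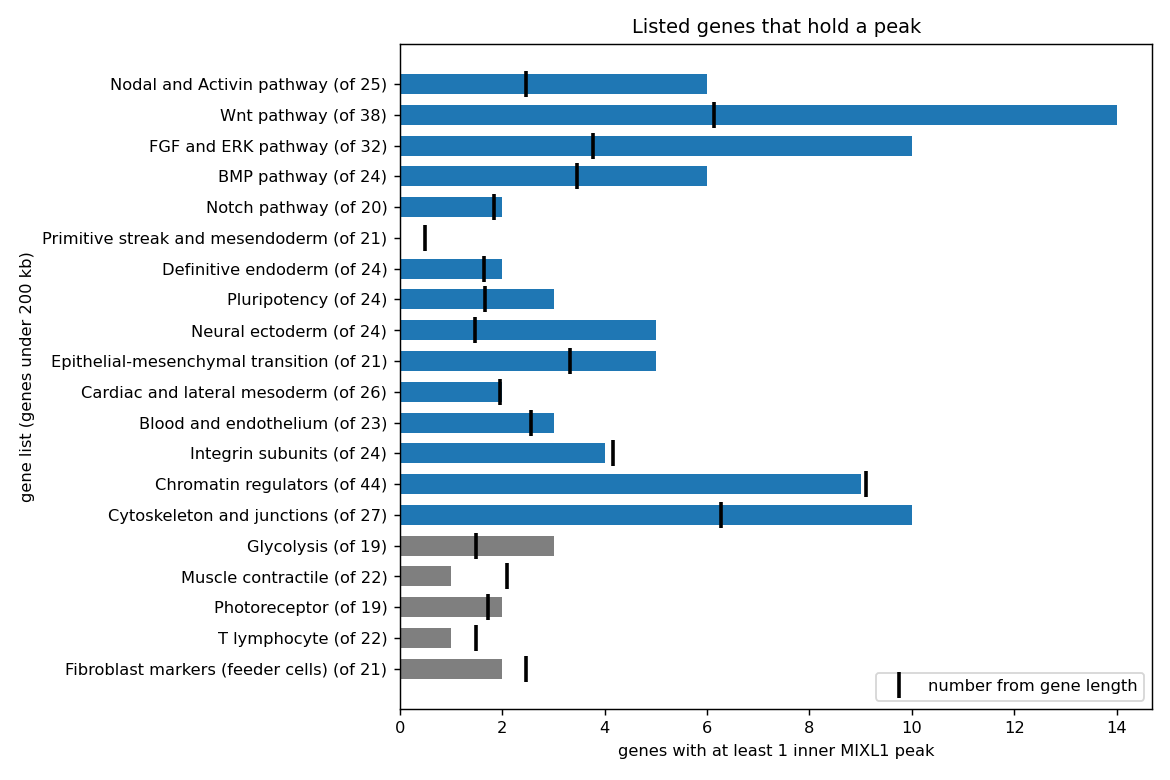
Number of listed genes under 200 kb with at least 1 inner MIXL1 peak (bars, x axis) for 20 lists (y axis, with the genes measured), and the number that the genes' length classes give (black marks). Control and feeder-cell lists are grey. The Wnt list has 14 genes against 6.13 from length, and the primitive streak list of short genes has 0 against 0.497.

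Of 142 genes that define cell states, 19 (13.4%) had an inner peak, against 12.2 from length, with a median length of 10.1 kb. None of 21 primitive streak and mesendoderm genes did (0.497 from length). Their median length was 4.89 kb, and with peaks within 10 kb merged 1 of them was hit. Neural ectoderm genes gave 5 of 24 (1.47 from length), with 2 peaks each in Pax2 and Pax3 and 1 each in Pax7, Meis1 and Hesx1. Epithelial-mesenchymal transition genes gave 5 of 21 (3.32 from length), with 3 peaks in Zeb2, a zinc-finger repressor gene of that transition, at 1.47, 50.05 and 85.4 kb from its start, and 1 each in Zeb1, Fn1 and Prrx1 among the others. That count was 2 with a length limit of 100 kb, which takes the longer listed genes out of the count. It was 3 with the wider 50% of the list, where 5.13% of all genes were hit, and also 3 more than 5 kb from gene ends. The numbers from length under these alternatives are not given here.

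Pluripotency genes gave 3 of 24 (1.66 from length). Lin28b had 2 peaks, of which the wider, 934 bp, covers the upstream stretch printed above, and its relative Lin28a and the zinc-finger gene Sall4 had 1 each. Definitive endoderm gave 2 of 24 (1.65 from length), with Cpm at 2 peaks and the endoderm factor gene Gata6 at 1. Cardiac and lateral mesoderm gave 2 of 26 (1.96), Gata6 and Mef2c. Blood and endothelium gave 3 of 23 (2.57), with 2 peaks in the angiopoietin receptor gene Tek and 1 each in Fli1 and Pecam1. Fibroblast markers, listed for the feeder cells, gave 2 of 21 (9.52%, 2.47 from length), Col6a3 and Prrx1.

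Gene families were counted in the same way. Cytoskeleton and junction genes gave 10 of 27 (6.26 from length), with 4 peaks in Parva, an adaptor of integrin adhesions, 3 in the alpha-actinin gene Actn4 and 2 in the myosin gene Myh9. Chromatin regulators gave 9 of 44 (9.10 from length), with 2 each in Chd7, Jarid2 and Tet3 among them. Integrin subunits gave 4 of 24 (4.15 from length), with 2 each in Itga8 and Itgb5. With a length limit of 100 kb the cytoskeleton and chromatin counts were 4 each and the integrin count was 2. That limit takes the longer listed genes out, so counts can only fall, and the number from length under it is not given here. The control lists' 7 genes included the glucose transporter gene Slc2a1, with 4 peaks in 28.6 kb, beside Eno1, Pfkp, Tnni1, Abca4, Cnga3 and Cd8a with 1 each.

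Genes with many peaks for their length lay both inside and outside dense regions. Dense windows of 1 Mb, with 20 or more peaks of any kind, held 136 of the 2141 peaks (6.35%). Gm3248 on chromosome 14 (68.5 kb) held 19, Cd244a on chromosome 1 (26.6 kb) 11, Gm3667 on chromosome 14 (22.1 kb) 10, and Itln1 on chromosome 1 (17.2 kb) 5. Cd244a encodes a receptor of natural killer cells and Itln1 an intestinal lectin, and both lie in the window from 171000001 to 172000000, where 19 of 37 peaks were inside 4 genes under 200 kb. Zfp640, with 4 peaks, was also in a dense window, whereas Naip6 with 5, Vmn2r49 with 3 and 2610042L04Rik with 5 were not. Zfp640, Naip6 and Vmn2r49 belong to multigene families of zinc-finger proteins, NAIP proteins and vomeronasal receptors. Reads from near-identical copies of such genes may be placed on any copy, and the labels do not say how such reads were treated. The part of this in the counts was not tested. Predicted genes made up 58 of the 1574 genes with a peak and held 106 peaks that lay in no other gene.

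Across chromosomes, density ranged from 3.34 per Mb of inner length on chromosome 3 (interval 2.72 to 4.07) to 6.67 on chromosome 17 (5.64 to 7.84), with chromosome 14 next at 5.66 (4.69 to 6.77). Without the peaks in dense windows, and over the same length, chromosomes 17 and 14 had 4.10 and 4.29 per Mb. On chromosome 17 these windows held 19 peaks around Hsf2bp and Pde9a and 10 around Pla2g7, among others. The density ratios to longer genes and to the length outside genes were 1.26 and 1.40 without chromosomes 14 and 17, an alternative added after the data were seen.

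**Figure D5:**
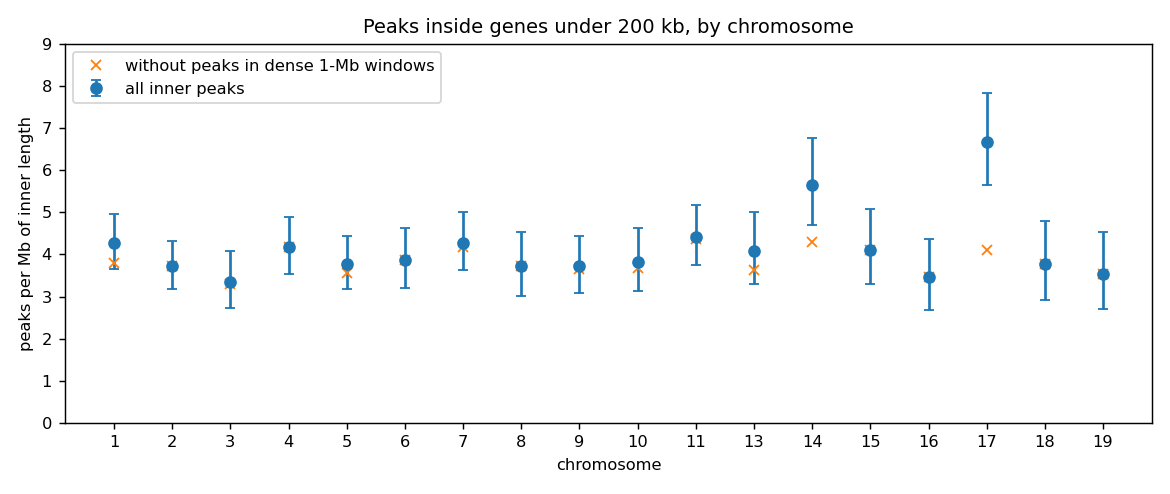
MIXL1 peaks inside genes under 200 kb per Mb of inner gene length (y axis) on each of 18 chromosomes (x axis), with 95% Poisson intervals in blue, and the value after removing peaks in dense 1-Mb windows over the same length as orange crosses. Chromosomes 17 and 14 are highest at 6.67 and 5.66 per Mb and lie at 4.10 and 4.29 without those peaks.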

How the data were processed

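Chromatin immunoprecipitation and input libraries (2 each) entered only through 1 peak list for the whole series. The authors deposited it as chromosome, start and end. CASAVA 1.8.2, Bowtie2, SAMtools and MACS2, with mm10, are named per the submitters' processing notes. How peaks were thresholded and filtered, and whether replicates were pooled or inputs used, is not stated in the labels, so the depth per library is unknown. Positions are 1-based.

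Peaks were classed by centre against RefSeq genes on GRCm38.p6 (the mm10 assembly), without genes starting in the first 3 Mb of a chromosome. Strand and start sites came from the RefSeq promoter table, which had none for chromosome 18. It replaced the planned genome sequence for motif searches. Lengths ran from 3 Mb to the last protein-coding gene end of each chromosome. Densities have exact Poisson 95% intervals and were compared by the exact conditional binomial test. Shares were compared by Fisher's exact test, with Benjamini-Hochberg adjustment within each kind of result and a threshold of 0.05. The number from length sums, over a list's genes, the share of genes hit in each of the length classes given in the report. Scripts were tested on simulated peaks. The named genes are the 12 with the most peaks, the 8 with the most per kb among those with at least 3, those of the 10 widest peaks, up to 4 per list (2 per control list) and those nearest the 200 kb limit, and not all of them are printed. Alternatives varied the peak position, length limit, distance from ends, predicted genes, width, dense windows and merging. Some listed genes and 1 list are not reported here. The peaks and lists were chosen with earlier results of these data known. Computation used scipy 1.17.1 and numpy 2.4.6 in Python 3.11.15, tables pandas 2.3.3, and plots matplotlib 3.10.9.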

Additional observations from a re-analysis of the deposited data

How the results depend on the processing

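The density ratio to the length outside genes (1.34 to 1.52), the share of peaks on the start side (53.3 to 55.5%) and the ratio at starts inside genes (2.20 to 2.64) kept their direction and their call under every alternative run for them, as did the excess of wide peaks over gene ends (odds ratio 1.63 to 2.98). The density ratio to longer genes was not past the threshold with a limit of 100 kb (1.02). The odds ratio of wide peaks against longer genes passed 5 kb from gene ends (1.33) and without dense windows (1.39). The comparisons of neighbouring peaks were unstable. Against gene ends the odds ratio reversed 5 kb from gene ends, where the opposite direction passed (0.803, adjusted p = 0.0115, Fisher's exact test), reversed without passing with the wider 50% of the list (0.941), and passed in its own direction without dense windows (1.39). Against longer genes it reversed with a limit of 300 kb (1.15) and without dense windows (1.15), and passed 5 kb from gene ends (0.805), without predicted genes (0.789) and with the wider 50% (0.700). Against the length outside genes it did not pass with limits of 100 kb (0.895) or 300 kb (0.928), the wider 50% (0.840), no dense windows (0.939), or neighbours within 5 kb (0.919) or 50 kb (0.940). The cause was not tested. Genes hit fell to 859 (5.13%) with the wider 50%, which holds fewer peaks. The number of the 16 non-control lists above their number from length was 13, and 10 to 14 under alternatives. Planned windows of other sizes around peak centres were not run, since only promoter sequence was at hand. No paired analysis was possible because the list gives no value per replicate, and for the same reason no replicate could be left out.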
